A study of Homo sapiens with 6 samples.

Results

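The genes described here encode the machinery that copies DNA in S phase, with its immediate regulators. They are 45 genes chosen by symbol from the 17100 genes of the deposited table, by their known function, with earlier results of these data known. All 45 were in the table and all 45 passed the filter on low counts, among 13322 genes tested. MDA-MB-231 is a human breast adenocarcinoma cell line, and its RNA was sequenced after vehicle or after guadecitabine (SGI-110), with 3 libraries in each group. The libraries came from independent experiments by the methods of the study. Treated cells received 1 µM guadecitabine for 96 h and then stood for 24 h without drug before harvest. The comparison asked which genes differed in RNA level between these groups in 1 cell line at 1 dose and 1 time. Library totals were 17602570 to 22277442 counts for vehicle and 8792127 to 21410849 counts for guadecitabine, with guadecitabine replicate 2 the shallowest.

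Replication starts when the origin recognition complex, CDC6 and CDT1 load the MCM2-7 helicase onto DNA. CDC45 and the GINS complex join it at S phase entry to form the active helicase, polymerase alpha-primase lays primers, and polymerases epsilon and delta extend them while held by the ring-shaped clamp PCNA, which the RFC complex loads. FEN1 and LIG1 finish the short Okazaki fragments of the lagging strand, RPA covers single-stranded DNA, and CAF-1 places histones on the new DNA. Many of these genes are known targets of E2F transcription factors, which are freed from RB proteins when cyclin E and cyclin-dependent kinases become active. Guadecitabine is a dinucleotide that releases decitabine, a cytidine analog that is built into DNA during replication and traps DNA methyltransferases.

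The promoters show what many of the members share apart from their function. Promoter sequences from RefSeq (GRCh38.p14, 250 bases before to 50 bases after each start site) were found for 38 of the 45 members. The letters TTTCCCGC, TTTCGCGC, TTTGCCGC or TTTGGCGC, forms of the E2F motif that can overlap each other, stood on either strand in 19 of the 38 member promoters (50%), in 3.31% of 35116 RefSeq promoters of all genes and in 5.18% of 10191 promoters of genes tested. The stretches below are the 120 bases before the start site of members whose levels are described further on, written 5′ to 3′ along the gene, with each E2F match in capitals. They were chosen to show the match in genes that fell, in a gene that rose, and its absence in the member with the largest rise. Members that fell without a match, such as POLD2 and TK1, are not shown, and no promoter sequence was found for MCM5.
LIG1: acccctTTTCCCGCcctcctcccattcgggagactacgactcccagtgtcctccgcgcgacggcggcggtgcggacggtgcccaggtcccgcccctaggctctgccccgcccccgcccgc
PCNA: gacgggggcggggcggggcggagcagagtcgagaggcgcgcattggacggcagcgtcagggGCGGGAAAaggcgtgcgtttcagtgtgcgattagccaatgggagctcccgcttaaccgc
POLE: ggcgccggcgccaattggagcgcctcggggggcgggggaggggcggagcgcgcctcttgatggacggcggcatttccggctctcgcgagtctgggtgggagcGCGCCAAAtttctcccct
MCM6: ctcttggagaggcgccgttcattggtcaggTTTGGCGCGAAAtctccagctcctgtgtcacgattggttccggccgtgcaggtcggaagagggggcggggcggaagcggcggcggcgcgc
MCM7: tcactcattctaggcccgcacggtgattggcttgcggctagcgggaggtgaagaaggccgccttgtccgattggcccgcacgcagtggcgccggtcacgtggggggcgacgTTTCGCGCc
GINS2: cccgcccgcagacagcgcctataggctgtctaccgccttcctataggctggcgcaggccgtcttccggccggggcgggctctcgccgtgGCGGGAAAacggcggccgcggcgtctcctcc
RFC3: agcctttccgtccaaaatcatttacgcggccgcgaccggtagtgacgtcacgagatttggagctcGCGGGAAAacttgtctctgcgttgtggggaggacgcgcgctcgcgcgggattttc
CCNE1: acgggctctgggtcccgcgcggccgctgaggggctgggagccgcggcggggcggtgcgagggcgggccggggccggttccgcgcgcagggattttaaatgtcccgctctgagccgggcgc
These stretches lie at chr19:48170345-48170464 on the minus strand for LIG1, chr20:5126623-5126742 on the minus strand for PCNA, chr12:132687343-132687462 on the minus strand for POLE and chr2:135876444-135876563 on the minus strand for MCM6. The others lie at chr7:100101398-100101517 on the minus strand for MCM7, chr16:85688955-85689074 on the minus strand for GINS2, chr13:33818029-33818148 on the plus strand for RFC3 and chr19:29811871-29811990 on the plus strand for CCNE1. The match begins 114 bases before the start site in LIG1, 59 in PCNA, 18 in POLE, 31 in GINS2, 9 in MCM7 and 55 in RFC3. In MCM6, overlapping matches on opposite strands begin at 90 and 86 bases before the start site. By the calls described below, a match was present in 9 of 14 promoters of members that fell, 3 of 7 of members that rose and 7 of 17 of members without a call. These matches are descriptions of letters in a window, and no binding was measured. A CCAAT box was present in 57.9% of member promoters and 36.2% of promoters of genes tested. The letters TTTGAA of the CHR element, known from promoters of mitotic genes, were present in 0 of the 38 member promoters and in 9.56% of promoters of genes tested. Member promoters held a median of 31.5 CpG dinucleotides, against 26 in promoters of genes tested, and the PRIM2 window held 0.

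Of 6 markers of mesenchymal-type breast lines, VIM, CD44, CAV1 and AXL each had at least 3591 counts in every library and EGFR had 910 to 2225, while SPARC had 18, 24 and 74 counts with vehicle and 3759, 1665 and 2994 with guadecitabine. Several of them changed with treatment, since SPARC rose by 6.51, CD44 by 1.18 and VIM by 0.33 on the log2 scale, CAV1 fell by 1.19 and AXL fell by 1.27. ERBB2 had 552 to 1974 counts, and ESR1 and PGR had at most 1 count in every library but vehicle replicate 3. Of 5 measured markers of blood and endothelial cells, CD14 was the highest, at 91 to 257 counts. Vehicle replicate 3 stood apart: 20 genes had no count there, against 2498 and 2517 in the other vehicle libraries, and it held 67 counts of ESR1 and 43 of PGR. A set of 533 genes was taken, with at most 1 count in each of vehicle replicates 1 and 2. They were also required to have at least 11 counts summed over the guadecitabine libraries. In vehicle replicate 3 these genes had a median of 7.10 counts per kb of exon. At that level such counts would make up a median of 1.25% of a member's count in vehicle replicate 3, and 5.80% at most, in CLSPN. These shares take the same level per kb in every member, which was not measured, so they are not bounds.

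The replication genes did not move as 1 block. After guadecitabine, 16 of the 45 members (35.6%) fell and 7 (15.6%) rose at an adjusted p of 0.05 in edgeR's quasi-likelihood test, while 18.4% of all genes tested fell and 19.3% rose. The other 22 members did not pass, 3 of them with an unadjusted p under 0.05. The estimate was negative in 33 members and positive in 12, and the median log2 fold change was -0.20, against 0.02 over all genes tested. Single members ran from -1.15 in LIG1, the DNA ligase of the lagging strand, to 0.76 in CCNE1, which encodes cyclin E1. In 20 members every guadecitabine library lay below every vehicle library, and in 8 every one lay above, while such a gap was seen in 25% of all genes tested for lower and 26.6% for higher levels. When tested against a 1.5-fold change, 2 members (LIG1 and MCM5) fell and 0 rose, with 5.22% of all genes lower and 6.14% higher. Without vehicle replicate 3, 17 members fell and 6 rose, while 2575 and 3002 of 13296 genes tested did. In whole cultures, a smaller share of cells in S phase and less RNA per S-phase cell cannot be told apart.

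**Figure D1:**
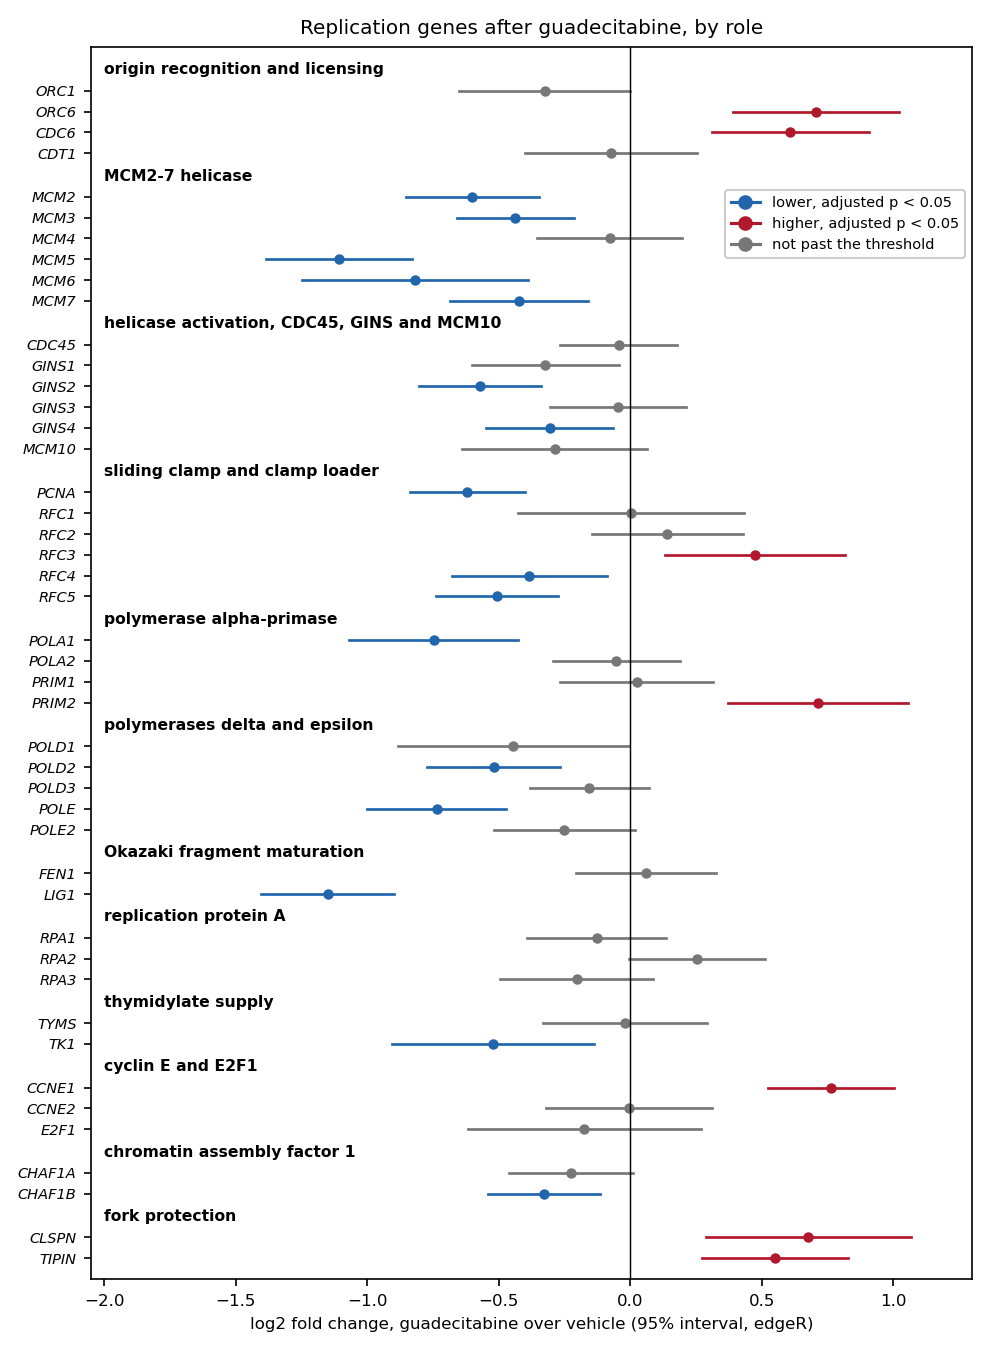
Log2 fold change of each of the 45 members, guadecitabine over vehicle, on the horizontal axis, grouped by role, with points for the edgeR estimate and bars for its 95% interval (3 libraries in each group). LIG1 and MCM5 lie farthest to the left at -1.15 and -1.11, and the 7 members that rose lie between 0.47 and 0.76.

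Of 4 genes for origin recognition and licensing, ORC6 and CDC6 rose, 0 fell, and ORC1 and CDT1 did not pass. Among all genes tested, 18.4% fell and 19.3% rose. This role and those that follow hold few genes each, and their counts were not tested against these shares. ORC6, the smallest subunit of the origin recognition complex, had 198, 210 and 168 normalized counts in the vehicle libraries and 338, 285 and 314 after guadecitabine. Every treated library was above every vehicle library, and the gene rose 1.63-fold (log2 0.71 ± 0.14 SE, adjusted p = 0.00404). CDC6, the ATPase that loads the helicase with ORC, rose 1.53-fold, from 1346, 1319 and 1325 to 2405, 1703 and 1967 normalized counts (adjusted p = 0.00656). Its vehicle libraries were close to each other (SD 14.0), and its treated libraries were more spread (SD 354). CDT1, the partner of CDC6 in loading, had a log2 fold change of -0.07 with a 95% interval of -0.40 to 0.25. ORC1, the largest subunit, had -0.32 (unadjusted p = 0.0496, adjusted p = 0.105), and every treated library lay below every vehicle library. Part of the ORC6 exon sequence in GENCODE is found elsewhere in the genome. Of its 50-base stretches, 82.7% were unique in GRCh37, the lowest share among the members. These exons of all transcripts add up to 4309 bp, against 1628 bp counted, and the share in the counted part was not measured.

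Of the 6 MCM2-7 genes, which encode the helicase that these factors load, 5 fell and 0 rose, and MCM4 did not pass. MCM5 had 4007, 4324 and 3406 normalized counts with vehicle and 1671, 1805 and 1973 with guadecitabine, a fall to 0.464 of the vehicle level (log2 -1.11 ± 0.12 SE, adjusted p = 0.000155). The lowest vehicle library was well above the highest treated library. MCM5 lies on chromosome 22 from 35796116 to 35820495 on the plus strand of hg19, and all of its 50-base exon stretches were unique. MCM6 fell by 0.82 on the log2 scale, from 1354, 1643 and 1219 to 956, 566 and 850 normalized counts (adjusted p = 0.00919). MCM2 fell from 4135, 4033 and 3467 to 2397, 2499 and 2775 (log2 -0.60 ± 0.11 SE, adjusted p = 0.00293). Neither gene had overlapping groups, and 23.6% of the MCM2 exon bases overlap a noncoding antisense gene in GENCODE. MCM3 fell by 0.44 and MCM7 by 0.42 on the log2 scale (adjusted p = 0.00766 and 0.0191), also without overlap. For MCM7 the adjusted p was 0.0875 without vehicle replicate 1 and 0.0889 without vehicle replicate 2. MCM4 had 3636, 3566 and 3689 normalized counts with vehicle and 3763, 2855 and 3690 with guadecitabine. Its log2 fold change was -0.08, with a 95% interval of -0.35 to 0.20 that excludes a fall of the size seen in MCM5.

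The 6 MCM2-7 proteins form 1 ring in equal numbers, while their RNA levels per length differed. Among them MCM7 was the highest and MCM6 the lowest, at 4369 ± 540 and 371 ± 57.1 normalized reads per kb of counted exon in the vehicle libraries (SD, n = 3). The summed level of the 6 genes was 10458 ± 954 reads per kb with vehicle and 7338 ± 440 with guadecitabine, a ratio of 0.702, and the groups did not overlap. MCM5 made up 14.7 ± 0.611% of this sum with vehicle and 9.71 ± 0.294% with guadecitabine. The share of MCM4 was 7.11 ± 0.793% and 9.54 ± 1.42%. Thus MCM5 was above MCM2 and MCM4 in every vehicle library, and these 3 genes had close levels per length after treatment (713 ± 59.3, 733 ± 56.2 and 699 ± 103 reads per kb).

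**Figure D2:**
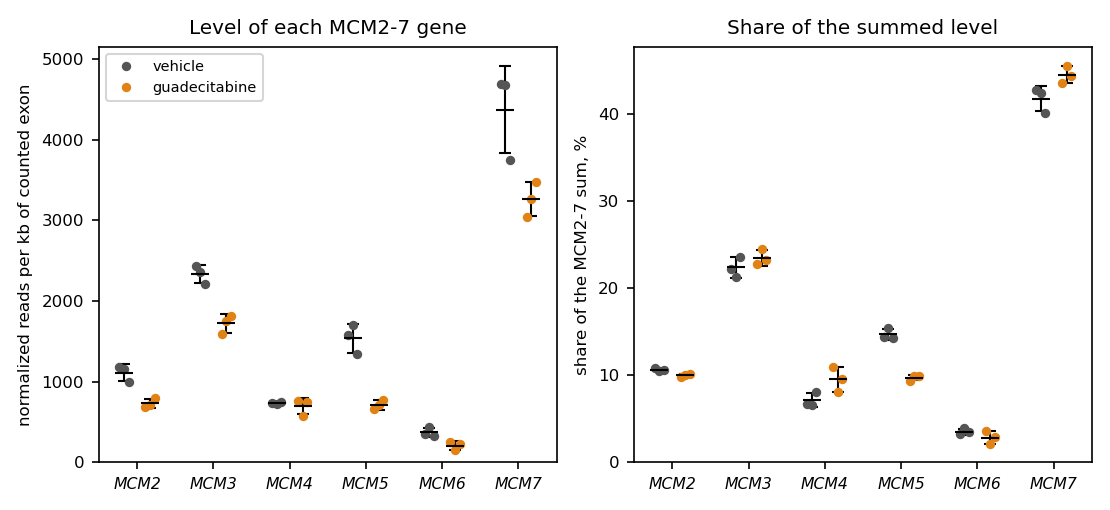
Left, normalized reads per kb of counted exon of the 6 MCM2-7 genes in each library, and right, the share of each gene in their summed level in percent, with points for libraries and bars for the mean ± SD of 3 libraries per group. The share of MCM5 went from 14.7% to 9.71%, and the MCM4 level stayed within the spread of its libraries.

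Among the 6 genes that turn the loaded ring into a working helicase, 2 fell and 0 rose. GINS2 had 554, 587 and 533 normalized counts with vehicle and 391, 360 and 374 with guadecitabine. The groups were far apart for their spread, and the gene fell by 0.57 on the log2 scale (± 0.10 SE, adjusted p = 0.00246). GINS4 fell by 0.31 with an adjusted p of 0.0491, at the edge of the threshold, and 23.4% of its exon bases overlap antisense genes in GENCODE. Leaving out any library but vehicle replicate 3 ended this call, with adjusted p from 0.0515 to 0.198. For GINS1 the log2 value was -0.32 (adjusted p = 0.0684), and it passed without vehicle replicate 3 (0.0451) or guadecitabine replicate 2 (0.0349), while GINS3 had -0.05. GINS1 to GINS4 form 1 complex, and their summed level was 1296 ± 62.8 reads per kb with vehicle and 1007 ± 24.5 with guadecitabine, without overlap. CDC45, the other partner of the active helicase, had a log2 fold change of -0.04 with a 95% interval of -0.27 to 0.18. MCM10, which takes part in starting the helicase, had -0.29 (adjusted p = 0.178, and 0.0254 without guadecitabine replicate 1).

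PCNA and the complex that loads it differed among their subunits. PCNA, the sliding clamp, had 4070, 4344 and 3831 normalized counts with vehicle and 2690, 2577 and 2704 after guadecitabine. The treated libraries were close to each other and all below the vehicle libraries, and PCNA fell to 0.651 of the vehicle level (log2 -0.62 ± 0.10 SE, adjusted p = 0.00115). Of the 5 RFC subunits, RFC5 (log2 -0.51, adjusted p = 0.00462) and RFC4 (log2 -0.38, adjusted p = 0.044) fell. RFC3 rose by 0.47, from 280, 273 and 267 to 466, 334 and 334 normalized counts (adjusted p = 0.0357). Guadecitabine replicate 1 was the highest RFC3 library, and the call was lost without it or without any 1 vehicle library (adjusted p from 0.0636 to 0.0969). The RFC4 call was lost without any library but vehicle replicate 3 (adjusted p from 0.0635 to 0.176). RFC1, the large subunit, had a log2 fold change of 0.00 and RFC2 of 0.14, and neither passed. The summed level of the 5 RFC genes overlapped between the groups, at 2564 ± 142 and 2389 ± 218 reads per kb.

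Polymerase alpha-primase, which makes the RNA-DNA primers, had 1 subunit lower and 1 higher. POLA1, the catalytic polymerase subunit, had 768, 762 and 681 normalized counts with vehicle and 498, 344 and 462 with guadecitabine. All treated libraries were lower, and POLA1 fell to 0.596 of the vehicle level (log2 -0.75 ± 0.14 SE, adjusted p = 0.00339). PRIM2, the large primase subunit, had 552, 547 and 464 normalized counts with vehicle and 1027, 700 and 823 with guadecitabine. Here all treated libraries were higher, a 1.64-fold rise (log2 0.71 ± 0.15 SE, adjusted p = 0.00571). The catalytic primase PRIM1 had a log2 fold change of 0.03 and the accessory subunit POLA2 of -0.05, with 95% intervals of -0.27 to 0.32 and -0.29 to 0.19.

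The polymerases that copy most of the genome had 2 of 5 subunits lower and 0 higher. POLE, the catalytic subunit of polymerase epsilon, had 1465, 1527 and 1394 normalized counts with vehicle and 963, 755 and 906 with guadecitabine. These groups did not overlap, and POLE fell to 0.601 of the vehicle level (log2 -0.74 ± 0.12 SE, adjusted p = 0.00129). POLD2, an accessory subunit of polymerase delta, fell by 0.52 on the log2 scale (adjusted p = 0.00621). POLD1, the catalytic subunit of polymerase delta, had 2941, 3379 and 2037 normalized counts with vehicle and 1669, 2371 and 2113 with guadecitabine. Its groups overlapped through vehicle replicate 3. The log2 difference was -0.44 (adjusted p = 0.103), and without that library it was -0.63 (adjusted p = 0.00775). The accessory subunits POLD3 and POLE2 had -0.16 and -0.25 and did not pass, although their groups did not overlap. POLE2 passed without guadecitabine replicate 1 (adjusted p = 0.0221).

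The largest fall of any member was in LIG1, which seals the nicks between Okazaki fragments. Its libraries had 2056, 2211 and 1952 normalized counts with vehicle and 838, 1003 and 965 with guadecitabine. The level after treatment was 0.451 of the vehicle level, with a 95% interval of 0.378 to 0.537 (log2 -1.15 ± 0.11 SE, adjusted p = 7.45e-05). LIG1 lies on chromosome 19 from 48618702 to 48673860 on the minus strand of hg19. FEN1, the flap nuclease that acts just before LIG1, had 3458, 3072 and 2654 normalized counts with vehicle and 3043, 3218 and 3310 with guadecitabine. The FEN1 groups overlapped, and its 95% interval of -0.21 to 0.33 on the log2 scale lies wholly above that of LIG1, -1.40 to -0.90.

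None of the 3 RPA subunits passed the test. RPA2, the middle subunit, had the lowest p of them, with 1721, 1684 and 1433 normalized counts for vehicle and 2088, 1801 and 1875 for guadecitabine. Its treated libraries were all above the vehicle libraries, by 0.25 on the log2 scale (adjusted p = 0.111). RPA1, the large subunit that binds DNA, had -0.13 and the small subunit RPA3 had -0.20. The summed level of the 3 genes was 2294 ± 189 reads per kb with vehicle and 2321 ± 92.6 with guadecitabine.

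Thymidylate for DNA comes from the new synthesis enzyme TYMS and from the salvage kinase TK1. TK1 had the highest level per length of all members, at 6059 ± 1010 reads per kb in the vehicle libraries. Its normalized counts were 10253, 10906 and 7834 with vehicle and 5389, 8074 and 6756 with guadecitabine. The lowest vehicle library was below the highest treated library, so that TK1 was the only member that fell with overlapping groups (log2 -0.52 ± 0.17 SE, adjusted p = 0.038). This call was lost without vehicle replicate 1 or 2 or guadecitabine replicate 1 or 3 (adjusted p from 0.0974 to 0.134). TYMS had a log2 fold change of -0.02 with a 95% interval of -0.33 to 0.29. In GENCODE, 47.9% of the TYMS exon bases overlap genes on the other strand (ENOSF1 and TYMSOS), and the counted exon length was 589 bp. That share is of 2421 bp of exons of all GENCODE transcripts, and the overlap of the counted bases was not measured. Whether the counting used strand is not given in the sources used here. It is therefore not known whether reads of these partners are among the TYMS counts.

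CCNE1 had the largest rise of any member. Cyclin E1 activates CDK2 at the entry to S phase. Its gene had 307, 294 and 321 normalized counts with vehicle and 494, 550 and 525 with guadecitabine, with tight and separate groups. CCNE1 rose 1.70-fold, with a 95% interval of 1.44 to 2.00 (log2 0.76 ± 0.11 SE, adjusted p = 0.000587). It lies on chromosome 19 from 30302901 to 30315215 on the plus strand of hg19, and all of its 50-base exon stretches were unique. The paralog CCNE2 had 653 ± 87.3 and 649 ± 84.5 normalized counts (SD, n = 3). Its 95% interval on the log2 scale was -0.32 to 0.31, and 37.1% of its exon bases in GENCODE overlap antisense genes, among them INTS8. E2F1, the activator of many replication genes, had 3868, 3780 and 2653 normalized counts with vehicle and 2420, 3873 and 2856 with guadecitabine. Its values overlapped widely, with a log2 difference of -0.17 (adjusted p = 0.519).

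Of the CAF-1 genes 1 of 2 fell, and both fork protection genes rose. CHAF1B, a subunit of the CAF-1 histone chaperone, had 963, 954 and 978 normalized counts with vehicle and 780, 739 and 785 with guadecitabine. It fell by 0.33 on the log2 scale without overlap (adjusted p = 0.0236). Leaving out any library but guadecitabine replicate 1 ended this call, with adjusted p from 0.0532 to 0.0895. CHAF1A, the large CAF-1 subunit, had -0.22 (adjusted p = 0.123). TIPIN, which holds the fork together with TIMELESS, had 296, 273 and 269 normalized counts with vehicle and 456, 399 and 372 with guadecitabine. All treated libraries were higher, and TIPIN rose 1.47-fold (log2 0.55 ± 0.12 SE, adjusted p = 0.00732). CLSPN, encoding the checkpoint mediator claspin, rose from 873, 861 and 784 to 1682, 999 and 1328 normalized counts (log2 0.68 ± 0.17 SE, adjusted p = 0.0138). Its treated libraries were the most spread relative to their mean among the members that rose, and without guadecitabine replicate 3 the adjusted p was 0.0528.

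**Figure D3:**
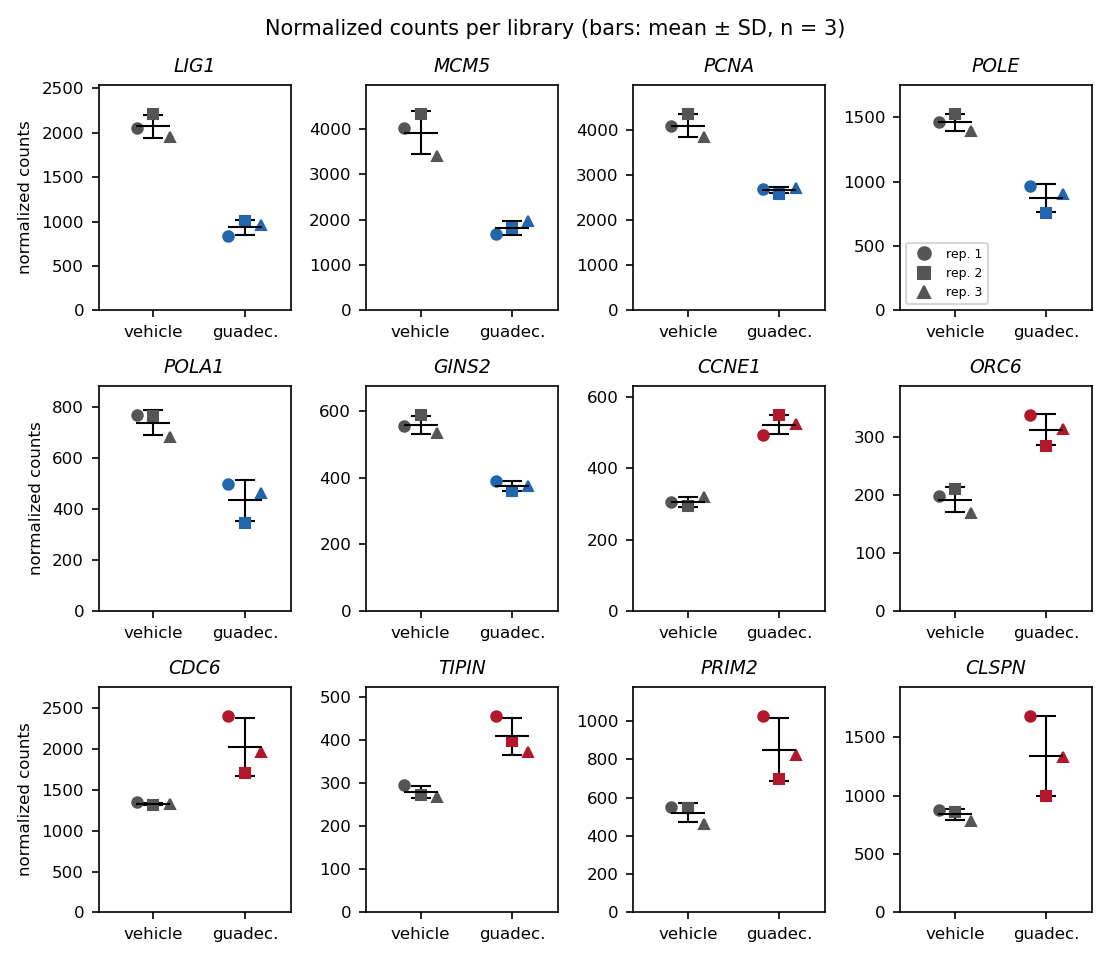
Normalized counts of 12 members in each of the 6 libraries, on axes that start at 0, with a marker shape per replicate number and bars for the mean ± SD of 3 libraries per group. The first 6 genes fell and the last 6 rose, and no gene shown had overlapping groups.

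With 3 libraries against 3, a permutation of the library labels cannot give a p below 0.1 for 1 gene, so that single genes rest on the spread shared by edgeR across all genes. The members that rose had a lower median exon GC content than those that fell, a difference that was not tested. Single genes overlapped, since POLA1, which fell, had 39.8% and CCNE1, which rose, had 52.2%. The median GC content of the exons was 43.5% for the 7 that rose, 50.9% for the 16 that fell and 48.3% for the 22 without a call. Across the 45 members, which share the same 6 libraries, the log2 fold change and the GC content had a Pearson r of -0.33 and a Spearman rho of -0.33, against -0.04 and -0.11 across 12515 genes tested. With offsets for GC content and length, all 7 members that rose and all 16 that fell kept their calls, and GINS1, MCM10, POLD1, POLD3 and POLE2 also fell. This fit called more genes in general, 2874 lower and 3129 higher among 12515, against 2446 and 2576 among 13322 without offsets. Guadecitabine replicate 2, the library with the fewest counts, was the lowest of the 3 treated libraries in 25 of the 45 members and in 5 of the 7 that rose, and its part in the results was not tested beyond leaving it out. Vehicle replicate 3 was the lowest vehicle library in 33 members. The order of libraries was not counted over all genes tested, so it cannot be read as a trait of the members.

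**Figure D4:**
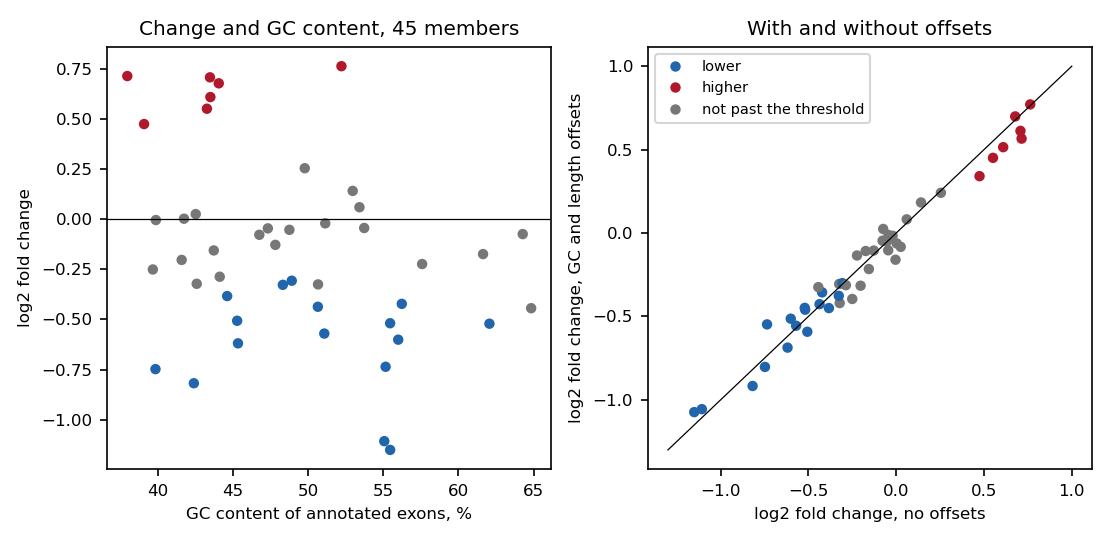
Left, log2 fold change of each member against the GC content of its annotated exons in percent, and right, log2 fold change with offsets for GC content and length against the value without them, with a line of equality and 1 point per member. Of the 7 members that rose, 6 lie below 45% GC and CCNE1 lies above 50%, and the points on the right stay near the line.

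Other genes of the same pathway were read from 4 lists. Of 39 other replisome and origin genes, 10 fell (25.6%, against 18.4% of all genes tested) and 4 rose (10.3%, against 19.3%), with a median log2 fold change of -0.08. In all, 35.9% of the list was called, near the 37.7% of all genes tested. These counts were 5 and 1 without vehicle replicate 1, 6 and 1 without vehicle replicate 2 or guadecitabine replicate 3, and 2 rose without vehicle replicate 3. Over all genes tested, 2446 fell and 2576 rose with all libraries, and 1690 and 1802 without vehicle replicate 1. The numbers were 1787 and 1840 without vehicle replicate 2 and 1629 and 1706 without guadecitabine replicate 3. Without vehicle replicate 3, 3002 genes rose. ASF1A, a histone chaperone that hands histones to CAF-1, fell by 1.09 (adjusted p = 0.000254) and RNASEH2A, the catalytic subunit of the nuclease that removes RNA from DNA, by 0.77 on the log2 scale (adjusted p = 0.00448). UHRF1, which brings DNMT1 to newly copied DNA, fell by 0.76 (adjusted p = 0.00179). DNMT1, the maintenance methyltransferase and a target of the drug, had -0.21 (unadjusted p = 0.0477, adjusted p = 0.102). It did not pass, although every treated library of DNMT1 lay below every vehicle library. TIMELESS, the partner of TIPIN, fell by 0.32 on the log2 scale while TIPIN rose.

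Among 18 genes of deoxynucleotide supply, 3 fell (16.7%) and 2 rose (11.1%), shares below those of all genes tested (18.4% and 19.3%), with a median log2 fold change of 0.08. Without guadecitabine replicate 3, 1 rose, while 1706 of 13618 genes tested did. RRM2, the small subunit of ribonucleotide reductase, had 4502, 4113 and 4074 normalized counts with vehicle and 6201, 5401 and 6461 with guadecitabine. It rose 1.42-fold without overlap (adjusted p = 0.00513). TK2, the mitochondrial thymidine kinase, fell by 1.60 on the log2 scale (adjusted p = 1.23e-05). DUT, which breaks down dUTP, fell by 0.70 with overlapping groups (adjusted p = 0.0408), and DCTPP1, a dCTP pyrophosphatase, rose by 0.58 (adjusted p = 0.0178).

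Of 29 E2F, RB and cyclin regulators tested, 14 fell (48.3%, against 18.4% of all genes tested) and 7 rose (24.1%, against 19.3%), with a median of -0.33. The number that fell was 7 without vehicle replicate 1 or without guadecitabine replicate 3. In these settings 1690 of 13561 and 1629 of 13618 genes tested fell, against 2446 of 13322 with all libraries. CDKN1A, which encodes the p21 inhibitor of cyclin-dependent kinases and a partner of PCNA, had 4958, 4634 and 3862 normalized counts with vehicle and 12316, 17377 and 14398 with guadecitabine. The groups were wide apart, a 3.28-fold rise (log2 1.71 ± 0.15 SE, adjusted p = 4.06e-05). CDKN2C, an inhibitor of CDK4 and CDK6, fell by 1.58 (adjusted p = 2.76e-05) and SKP2, which marks the inhibitor p27 for breakdown, by 1.14 on the log2 scale (adjusted p = 0.000364). CDKN1B, which encodes p27, also fell, by 0.93 without overlap (adjusted p = 0.000172). Among the 7 that rose were also CDK6, by 0.97, and CDC25A, by 0.72 on the log2 scale (adjusted p = 0.00379 and 0.00155). CCNA2, the S-phase and mitotic cyclin A2, fell by 0.39 (adjusted p = 0.0159).

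The 24 mitosis genes had 10 members that fell (41.7%, against 18.4% of all genes tested) and 0 that rose (19.3% of all genes tested), with a median log2 fold change of -0.29. Without vehicle replicate 1, 6 fell, while 1690 of 13561 genes tested did. Without guadecitabine replicate 2, 1 rose, while 2484 of 13572 genes tested did. BIRC5, CCNB2 and PLK1, which act in chromosome segregation and mitotic entry, fell by 0.74, 0.71 and 0.67 on the log2 scale (adjusted p = 0.00152, 0.00136 and 0.00104). MKI67, the common marker of cycling cells, had -0.21 and did not pass (adjusted p = 0.272). The replication members had a median closer to 0 than the mitosis genes and, unlike them, included genes that rose, and this difference between the lists was not tested.

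**Figure D5:**
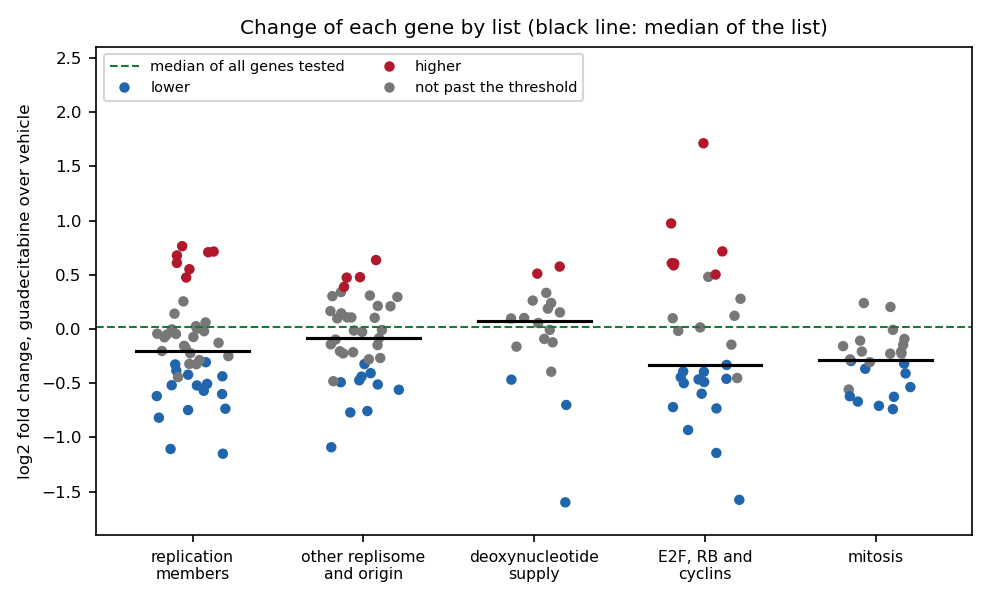
Log2 fold change, guadecitabine over vehicle, of each gene in the replication set and in 4 related lists, with a black line at the median of each list and a dashed line at the median of all genes tested. The medians are -0.20, -0.08, 0.08, -0.33 and -0.29 from left to right, and CDKN1A is the highest point at 1.71.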

How the data were processed

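RNA sequencing of 6 libraries of MDA-MB-231 cells was analysed, 3 with vehicle and 3 with guadecitabine, grouped by their labels. The authors aligned reads to hg19 with STAR (2.3.1z in the submitters' processing notes). They deposited raw counts of reads in exons, made with iRNA-seq, with 1 RefSeq transcript named for each gene. Deposited log2 values of the regularized log transformation were not used. Columns of the authors' own DESeq2 comparison (fold change, standard error, test statistic and p-values) were not used either. Library totals bound the precision, and reads without molecular identifiers are not independent molecules.

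The deposited counts entered edgeR 4.0.16 under R 4.3.3 (TMM factors, filterByExpr with a minimum count of 10, quasi-likelihood F test, two-sided, Benjamini-Hochberg adjustment over 13322 genes, threshold 0.05). Normalized counts are counts divided by the TMM-scaled library total and multiplied by the mean total of 17911210. Reads per kb are these divided by the deposited exon length. Exon GC content and antisense overlap came from GENCODE release 44 on GRCh37 (GC for 93.9% of genes tested), and uniqueness from 50-base stretches of the same assembly. These values describe the joined exons of all GENCODE transcripts of a gene, which can differ from the exons counted. Promoter motifs were matched on both strands.

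The members, roles and lists were chosen with earlier results of these data known. Values per library are given for the member of each role with the lowest p, for members past the threshold with a log2 change of at least 1, and for some others chosen after their values were seen. From each list, the 3 genes past the threshold with the largest change are named, and always CDKN1A, RRM2, DNMT1, CCNA2 and MKI67. TIMELESS, CDKN1B, CDK6 and CDC25A were added after their values were seen. Alternatives were DESeq2 1.42.0 (Wald test, size factors), library totals, no filter, at least 10 counts in every library, a 1.5-fold threshold, a replicate block and each library left out. Offsets for GC content and length were added after seeing the data.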

Additional observations from a re-analysis of the deposited data

How the results depend on the processing

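No called member changed direction under any alternative. Of the 16 members that fell, 11 kept their call in every alternative except the 1.5-fold threshold, as did 5 of the 7 that rose. With DESeq2, its size factors, library totals, no filter or 10 counts in every library, 11 to 16 members fell and 7 rose. Without a filter the median of all genes moved to -0.11, and CHAF1B, GINS4, MCM7, RFC4 and TK1 lost their calls. Against a 1.5-fold change, 2 members fell, 0 rose and 1514 genes passed in all, against 5022. Leaving out 1 library each gave 11 to 17 members that fell, 6 or 7 that rose, a member median of -0.26 (without vehicle replicate 3) to -0.17, and 3335 (without guadecitabine replicate 3) to 5577 genes called in all. With GC and length offsets, 21 members fell and 7 rose, and with vehicle replicate 3 also left out, 23 fell with a median of -0.28. Of all genes, 2874 fell and 3129 rose among 12515 with the offsets. With that library also left out, 3245 fell and 3783 rose among 12493. Same-numbered libraries did not deviate together (r = -0.05, 0.05 and -0.04), so the numbers were not taken as pairs. With a replicate block, 13 members fell and 7 rose among 4654 genes called, and with the GC and length offsets and the block, 20 and 7. The fit with offsets and block called 2731 genes lower and 3068 higher among 12515. The cause of these changes was not tested. Members had 140 to 13193 counts per library.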
